A study of Homo sapiens with 12 samples.

Results

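The genes studied here lie on the outer part of the long arm of human chromosome 1 (distal 1q), from the start of SLC19A2 at 169.5 Mb of the hg38 build to the last annotated gene, which ends at 248937099, a stretch of 79.5 Mb. Every gene row that could be placed on chromosome 1 with a start at or beyond that of SLC19A2 is a member, which gives 1042 of the 60483 gene rows of the total RNA tables. The boundary position came from an earlier division of each chromosome by gene order, in which the genes beyond it moved together between the same mut and WT total RNA libraries. Those total RNA values therefore chose the members, and they are described here without a test of the region. The members comprise 505 protein-coding genes, 293 pseudogenes and 26 transcribed pseudogenes, 158 long noncoding RNA genes, 32 microRNA genes, 17 ribosomal 5S RNA genes, 9 small nucleolar RNA (snoRNA) genes and 2 other noncoding RNA genes. Of these, 398 had no count in any library, 302 had counts below the filter on low counts, and 342 were tested.

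The cells were HEK293, an established human embryonic kidney line, carrying a doxycycline-inducible cassette inserted with the Flp-In T-REx system. In the mut group the cassette produced the catalytic mutant of DIS3L2, a cytoplasmic exoribonuclease that degrades RNA from the 3′ end, and in the WT group it produced wild-type DIS3L2. Libraries are called mut 1 to 3 and WT 1 to 3. Both groups shared everything else in the cassette, namely a recoded, C-terminally FLAG-tagged coding sequence and hairpins in microRNA backbones directed against the cells' own DIS3L2 mRNA, and both were given doxycycline at 100 ng/ml for 3 days. Each group had 3 total RNA libraries, depleted of rRNA, and 3 small RNA libraries selected by size on gels. The labels call these libraries replicates without saying that they were separate cultures, nor whether a group was 1 clone, so the spread given below may be technical.

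Chromosome 1 is the longest human chromosome, and the outer part of its long arm holds genes of unrelated function set side by side. They include laminin subunits, mitochondrial proteins, splicing and ribosome assembly factors, centromere proteins, the complement regulator cluster and, at the tip, zinc finger and olfactory receptor genes. Neighbouring genes usually have their own promoters. DNA content and chromatin were not measured in these libraries.

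Promoters are shown for 5 genes at the edges and the centre of the pattern described below. SLC19A2 is the first gene of the region. By the squared deviations used below, CACYBP is the first gene of the stretch raised in mut. NIBAN1 is the largest rise with a mean CPM of at least 20, and DHX9 has the most counts within the raised stretch. SMYD3 is the first gene after that stretch by absolute deviations, while squared deviations put ACTN2 there. Each sequence holds the 250 bases before the gene's first listed start, read 5′ to 3′ on the strand of the gene, from RefSeq assembly GRCh38.p14. Capitals mark 3 promoter motifs found on either strand: the GC box GGGCGG, the CCAAT box CCAAT and the TATA box TATAAA.
SLC19A2: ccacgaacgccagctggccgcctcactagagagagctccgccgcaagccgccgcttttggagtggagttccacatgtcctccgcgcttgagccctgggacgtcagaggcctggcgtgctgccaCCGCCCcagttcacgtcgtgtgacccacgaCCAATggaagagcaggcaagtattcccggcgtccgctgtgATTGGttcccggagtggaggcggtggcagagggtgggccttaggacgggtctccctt
CACYBP: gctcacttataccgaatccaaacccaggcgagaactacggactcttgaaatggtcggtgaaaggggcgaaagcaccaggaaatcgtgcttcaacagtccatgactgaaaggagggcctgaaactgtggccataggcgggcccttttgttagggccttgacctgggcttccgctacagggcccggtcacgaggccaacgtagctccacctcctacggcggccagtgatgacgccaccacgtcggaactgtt
NIBAN1: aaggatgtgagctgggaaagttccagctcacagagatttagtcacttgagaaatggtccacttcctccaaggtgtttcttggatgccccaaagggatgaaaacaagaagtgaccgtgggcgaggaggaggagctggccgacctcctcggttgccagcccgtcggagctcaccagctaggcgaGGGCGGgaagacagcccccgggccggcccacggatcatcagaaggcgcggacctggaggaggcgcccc
DHX9: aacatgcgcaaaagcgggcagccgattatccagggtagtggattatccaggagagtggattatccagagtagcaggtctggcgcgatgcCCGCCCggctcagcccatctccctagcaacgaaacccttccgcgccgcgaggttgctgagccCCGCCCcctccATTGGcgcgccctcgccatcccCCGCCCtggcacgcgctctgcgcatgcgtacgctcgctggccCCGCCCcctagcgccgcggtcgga
SMYD3: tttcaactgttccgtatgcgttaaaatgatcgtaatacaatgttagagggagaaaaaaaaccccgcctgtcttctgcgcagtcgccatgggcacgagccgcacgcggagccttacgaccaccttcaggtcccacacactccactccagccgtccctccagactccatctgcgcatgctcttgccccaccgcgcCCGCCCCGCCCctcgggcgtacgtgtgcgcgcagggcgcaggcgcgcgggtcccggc
They lie at chr1:169485971-169486220 (minus strand), chr1:174999185-174999434 (plus strand), chr1:184974509-184974758 (minus strand), chr1:182839097-182839346 (plus strand) and chr1:246507280-246507529 (minus strand). CACYBP holds none of the 3 motifs, DHX9 holds 4 GC boxes and 1 CCAAT box, SMYD3 holds 2 GC boxes that share bases, SLC19A2 holds 1 GC box and 2 CCAAT boxes, and NIBAN1 holds 1 GC box. Among the protein-coding genes of the raised stretch with a promoter in the table (216 of 249), 68.5% held a GC box, 32.9% a CCAAT box and 5.09% a TATA box. The shares were 68.8%, 35.8% and 5.13% among 10070 promoters of all tested protein-coding genes, and 42.3%, 33% and 11.1% among all 27305 promoters of that length in the table. A match describes the letters and shows no binding.

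Total counts in genes were 8467957 to 9009114 in the mut total RNA libraries and 8315986 to 12675042 in the WT libraries. The HEK293 markers VIM, NEFL, INA and LIN28B were expressed in both groups (mean levels of 1411, 126, 34.98 and 90.6 CPM, counts scaled to a common library size, in mut and 1207, 88.1, 23.98 and 106 CPM in WT), while NEFM and PAX2 stayed below 1 CPM. VIM, NEFL and INA passed the test as higher in mut, and LIN28B as lower. Blood and hepatocyte markers were at or near 0, with CD3E, HBB and TTR at 0 in every library. Of the 4 fibroblast markers COL1A1 and COL3A1 were higher in mut at low level (2.77 and 1.37 CPM in mut, 1.5 and 0.33 CPM in WT), PDGFRA did not pass the test and DCN was at 0. Their part in the results was not tested.

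Across the 342 tested members, 190 were higher and 10 lower in mut (edgeR quasi-likelihood test, Benjamini-Hochberg adjusted p under 0.05 over all 14409 tested genes), and 142 did not pass. DESeq2 called 156 of the members higher, where its background share was 8.47%. The background shares over all tested genes were 13% higher and 14.2% lower, against 55.6% and 2.92% of the tested members. These counts describe members that the same contrast chose. The median log2 fold change of the tested members was 0.31, a fold of 1.24, with quartiles of 0.15 and 0.48, and the median over all tested genes was -0.01. In 292 of the 342 the log2 fold change was above 0 (85.4%, against 48.7% of all tested genes), and in 220 all 3 mut libraries lay above all 3 WT libraries (background 19.4%), while in 15 they lay below (background 21.2%). Differences were small for most genes: 46 members were over 1.5-fold higher and 11 over 2-fold higher, where the background shares were 3.57% and 1.3%. In bulk RNA, more RNA per cell and a larger number of cells with more of it cannot be told apart.

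Each mut library showed the difference. The median log2 CPM of the tested members relative to the WT mean was 0.26, 0.34 and 0.31 in the 3 mut libraries, against 0.02, -0.03 and 0.01 in the 3 WT libraries. The groups did not overlap on this measure, which uses the same values that chose the members. All 1042 member rows jointly held 2.54% ± 0.093 of gene counts in mut and 2.08% ± 0.040 in WT (SD, n = 3 each). By gene type, the 306 tested protein-coding members had a median of 0.30 (180 higher, 9 lower), the 22 long noncoding RNAs one of 0.46 (7 higher, 1 lower) and the 12 pseudogenes one of 0.17 (2 higher, 0 lower).

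**Figure D1:**
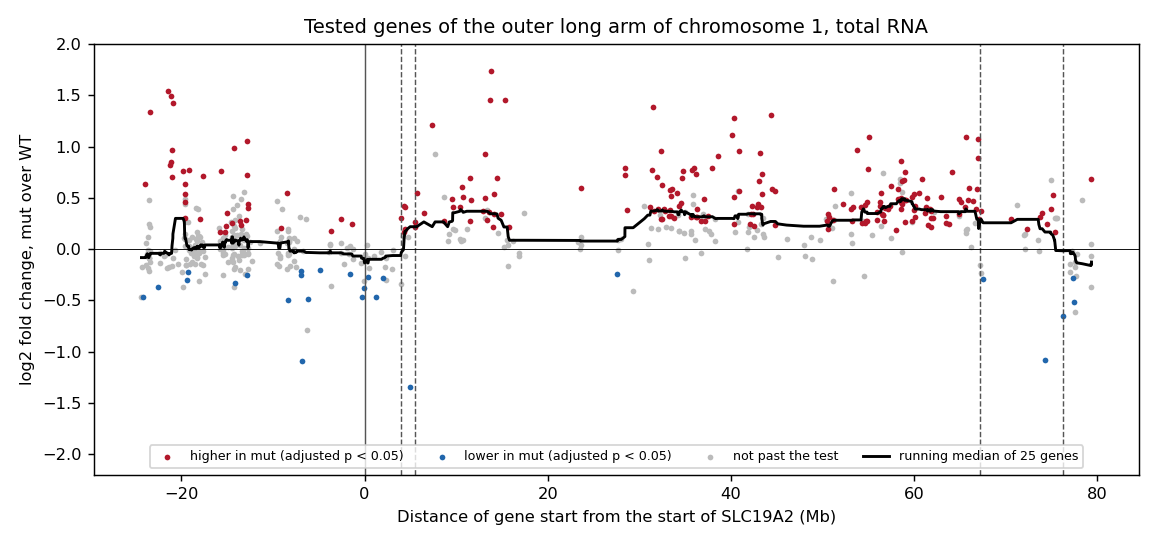
Log2 fold change (mut over WT, total RNA) of the 591 tested genes of chromosome 1 from FAM72D (145.1 Mb) on, against the distance of each gene's start from that of SLC19A2 in Mb; red points were higher, blue lower and grey not past the test, and the black line is the running median of 25 genes. The solid vertical line marks SLC19A2 and the dashed lines, left to right, PRDX6, CACYBP, ACTN2 and SMYD3; the running median leaves 0 between the first pair of dashed lines, stays above it over most of the arm and returns to 0 or below at the end.

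Where the difference begins was read from the ordered genes. The 591 tested genes from FAM72D at 145.1 Mb on were divided into consecutive runs of at least 10 genes so that the squared deviations of log2 fold change from the run means were smallest. With 2 runs the second began at CACYBP (start 174999435), 5.54 Mb beyond SLC19A2, and each of the 3 mut libraries set against the WT mean gave the same gene. The 3 share that WT mean and the contrast that chose the region, so they give no independent support for the start. With 3 runs the raised run reached from CACYBP through HEATR1 (start 236549005), and ACTN2 (start 236686499) was the first gene after it. With mut 2 or mut 3 alone the first gene after the run was SMYD3 or ACTN2, and with mut 3 the run began at KIAA0040. With mut 1 alone the breaks of the 3 runs fell at UHMK1 and CACYBP, so none was left to mark an end. Dividing its genes from CACYBP on into 2 runs put the start of the second at ACTN2. Medians in mut 1 were 0.31 from CACYBP through HEATR1 and 0.03 after. With all libraries, medians were 0.01 before, 0.35 within and 0.05 after the run from CACYBP through HEATR1. When absolute instead of squared deviations were used, the run began at PRDX6 (start 173477335) and the first gene after it was SMYD3 (start 245749347). Between these criteria the start ranged from PRDX6 to CACYBP and the first gene after the run from ACTN2 to SMYD3.

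The boundary of the region lay among genes that were level or lower in mut. Of the 5 tested genes just before SLC19A2, NME7 and BLZF1 were lower (log2 fold changes of -0.46 and -0.38), and SFT2D2, ATP1B1 and CCDC181 stood at -0.10, -0.13 and -0.31 and did not pass. NME7 did not pass without mut 1 or WT 3 (adjusted p = 0.074 and 0.078) nor in DESeq2 (0.066). Just inside, SLC19A2, which encodes a thiamine transporter, had 33.8, 37.7 and 34.9 CPM in mut and 37.4, 36.4 and 36.1 CPM in WT, so its groups overlapped. C1orf112, METTL18 and KIFAP3 stood at 0.04, -0.09 and -0.18, and SCYL3 was lower at -0.27 (SE 0.10). Over the first 15 tested members, from SLC19A2 to PRDX6-AS1, 0 were higher and 3 lower (SCYL3, PRRX1 and PRRC2C), 1 lay above 0, and the median was -0.17. PRRC2C, a component of stress granules, had 245, 292 and 289.6 CPM in mut against 349, 308 and 346 CPM in WT, without overlap (log2 fold change -0.28, SE 0.07).

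From PRDX6 to GPR52, 9 genes just before CACYBP, the values were mixed. PRDX6, CENPL, GAS5 and RC3H1 were among those higher, GPR52 was lower, and ZBTB37 and RABGAP1L were at -0.06 and 0.12 and did not pass (RABGAP1L did without mut 1, adjusted p = 0.029). PRDX6, a peroxiredoxin that reduces peroxides, had 319, 307 and 322 CPM in mut against 252, 255 and 262 CPM in WT, a log2 fold change of 0.30 (SE 0.05). GAS5, the noncoding host RNA of a set of snoRNAs, had 155, 150.2 and 140.4 CPM in mut and 114, 110.02 and 111 CPM in WT (0.41, SE 0.06). Both genes were separated between the groups, GAS5 by a wider margin. ZBTB37, which overlaps the GAS5 locus, was not. CACYBP itself, which encodes a calcyclin-binding protein, had 147, 143 and 139.7 CPM in mut and 119.1, 119.5 and 118.6 CPM in WT (0.27, SE 0.06), and the genes beyond it, MRPS14, KIAA0040, COP1 and ASTN1, stood at 0.22, 0.55, 0.36 and 1.21 and were all higher. RC3H1 did not pass without mut 3 or WT 2 (adjusted p = 0.066 and 0.087), and MRPS14 without any 1 of the mut libraries or WT libraries 1 and 2 (0.055 to 0.12) nor in DESeq2 (0.14).

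From CACYBP to HEATR1, in the 61.7 Mb between the starts of CACYBP and ACTN2, 175 of 279 tested genes were higher and 1 was lower, the median being 0.35, a fold of 1.27, and 263 lay above 0. Medians of this run were 0.31, 0.37 and 0.34 in the 3 mut libraries. Over consecutive windows of 25 genes across the region, the first window had a median of -0.06, the next 12 had medians between 0.22 and 0.42, and the last window, of 17 genes, had -0.14. The windows from ENAH to GUK1 and from IBA57-DT to EXOC8 had the highest medians, 0.42 and 0.41, with 20 and 22 of 25 genes higher. The log2 fold changes of single genes in the run had an SD of 0.30, against 0.38 among genes placed outside chromosome 1, where the median was -0.01. Single genes thus varied within the run by more than their median standard error of 0.085.

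A gene-poor stretch within the run held values near 0, and was chosen after these were seen. Between 16 and 28 Mb beyond SLC19A2, from HMCN1 to ZBTB41, 12 genes were tested, of which 1 was higher (GLRX2, a mitochondrial glutaredoxin), 1 lower (ASPM, a spindle pole protein) and 7 above 0, with a median of 0.05. Medians of these genes were -0.14, 0.14 and 0.08 in mut and 0.05, -0.10 and 0.04 in WT, so the groups overlapped. TPR, a protein of the nuclear pore basket, had 238.5, 298 and 288 CPM in mut and 294, 253 and 300.3 CPM in WT, and the RNA-binding protein gene RO60 had 125, 153 and 147 CPM in mut against 149.5, 124 and 141 CPM in WT. In both, mut 1 was the lowest or near the lowest of the 6.

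**Figure D2:**
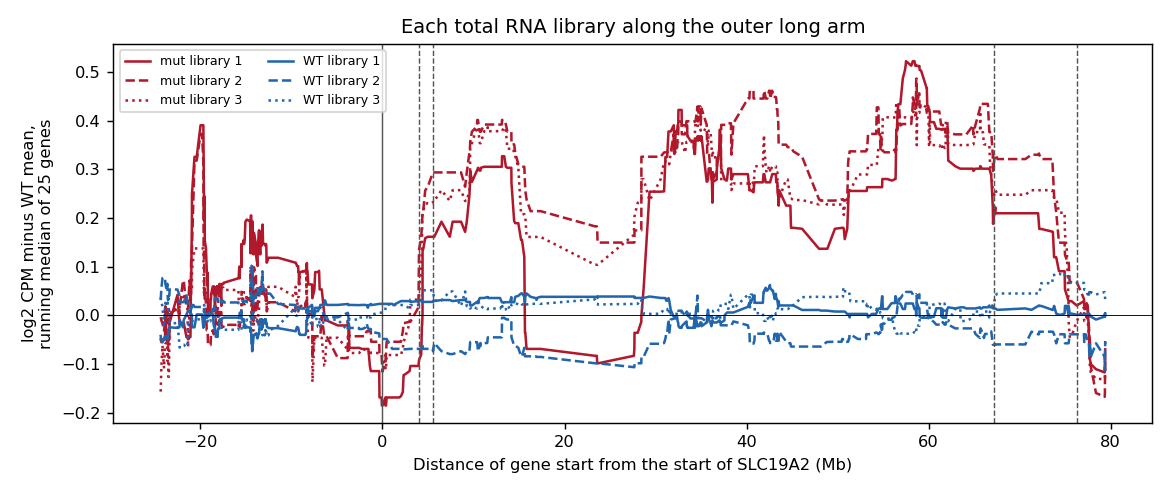
Running median over 25 genes of log2 CPM minus the WT mean in each total RNA library, against distance from the start of SLC19A2 in Mb; red lines are the mut and blue lines the WT libraries, and vertical lines are as in the plot of fold changes along the arm. Between CACYBP and HEATR1 the lines reach 0.52, 0.49 and 0.44 in mut libraries 1, 2 and 3 and no more than 0.062 in the WT libraries, and mut 1 dips to -0.099 in the gene-poor stretch.

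Genes nearer the centromere lay near 0. From FAM72D to the start of the region the median of 249 tested genes was 0.03, and 36 were higher and 15 lower. Over the 790 tested genes before FAM72D the median was -0.02, and 86 were higher and 101 lower. One window of 25 genes between FAM72D and the region, from GPR89B to H2AC21, had a median of 0.30 with 11 genes higher. It ends in a cluster of histone genes, whose near-identical copies make single values uncertain, and its median gene span was 0.522 kb. The other 9 windows there had medians between -0.06 and 0.09.

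At the far end the tested genes lay closer to 0, and how close depended on the filter on low counts. From ACTN2 to KIF26B 9 of 23 tested genes were higher and 2 lower, the median being 0.24. The higher genes included MTR, FMN2, EXO1, SDCCAG8, ZBTB18, ADSS2, DESI2 and HNRNPU. MTR, the cobalamin-dependent methionine synthase, had 218, 263 and 268 CPM in mut against 196, 185 and 199 CPM in WT, a log2 fold change of 0.37 (SE 0.07), and DESI2 had 243.5, 248 and 236 CPM in mut against 179.6, 164 and 163 CPM in WT (0.52, SE 0.06). HNRNPU, a nuclear RNA and chromatin scaffold protein and the gene with the most counts in the region, had 795, 849 and 935 CPM in mut and 767, 748 and 784 CPM in WT (0.17, SE 0.06). Its groups were close but did not overlap, and it did not pass without mut 3, WT 1 or WT 2 (adjusted p = 0.081 to 0.17).

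From SMYD3 to PGBD2, the last 16 tested genes, 1 was higher and 3 were lower (SMYD3, AHCTF1 and ZNF695), 3 lay above 0 and the median was -0.16. Medians of these genes were -0.12, -0.17 and -0.13 in mut and -0.0027, -0.09 and 0.05 in WT. SMYD3, a lysine methyltransferase, had 2.12, 2.58 and 3.33 CPM in mut and 4.14, 4.07 and 4.55 CPM in WT, a log2 fold change of -0.66 (SE 0.22). SCCPDH and ZNF496, among the better counted genes here, stood at -0.01 and -0.04. Of the last 5, TRIM58, SH3BP5L, ZNF672 and ZNF692 stood at 0.48, -0.07, 0.05 and -0.37 and did not pass. PGBD2, a transposase-derived gene and the last tested gene of the chromosome, had 3.46, 3.17 and 2.53 CPM in mut and 1.55, 2.11 and 1.97 CPM in WT (0.69, SE 0.25), and it did not pass without mut 1 or 2 or WT 1 or 3 (adjusted p = 0.073 to 0.16) nor in DESeq2 (0.22). The last 25 tested genes together had a median of -0.04. It stood at 0.014 without mut 3 and 0.017 without WT 2, at 0.15 when members needed a mean CPM of at least 5, and at 0.065 in protein-coding genes. Most genes at the end were weakly counted, with a median of 5.9 CPM in the last window, and the 4 of 56 olfactory receptor members that had counts reached at most 9, so none was tested.

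**Figure D3:**
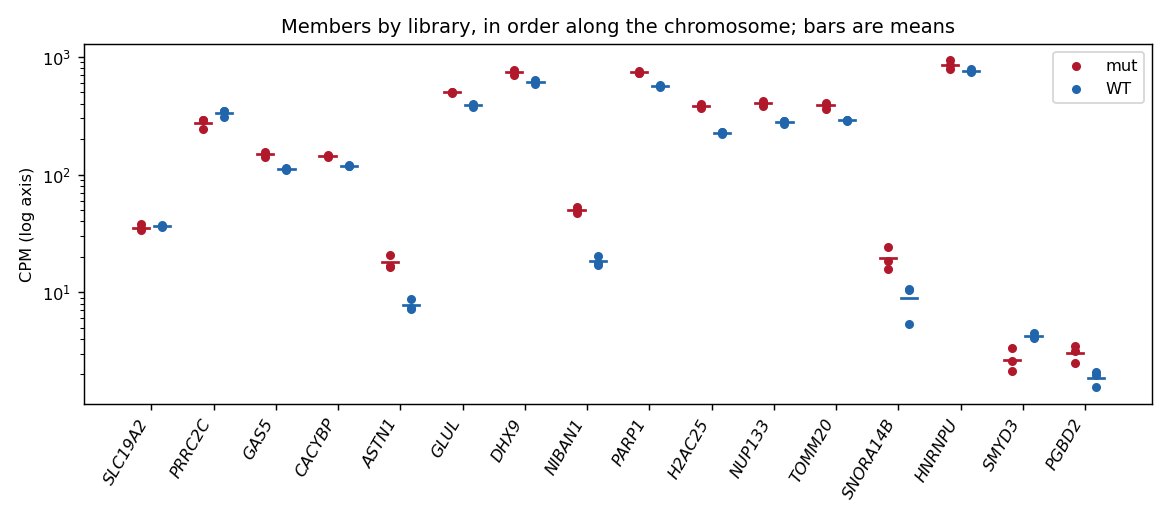
CPM in each total RNA library (log axis) of 16 members in order along the chromosome; red points are mut and blue points WT libraries, and bars are means of 3. PRRC2C and SMYD3, near the left and right edges, are lower in mut, while NIBAN1, ASTN1 and H2AC25 within the raised run show the 3 mut points well above the 3 WT points.

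Members were grouped into 11 function lists. Their counts stand beside 13% higher and 14.2% lower among all tested genes, and 55.6% and 2.92% among tested members. Within the run 62.7% were higher, and the lists differ in how many genes lie there. The run held 12 of the 16 tested mitochondrial protein genes and 16 of the 26 tested transcription factor genes. Whether function went with the difference apart from position was not tested. Genes of mitochondrial proteins were higher in 13 of 16 cases and lower in 0, with a median log2 fold change of 0.40. TOMM20, a receptor of the outer membrane protein import complex, had 358, 392 and 409.9 CPM in mut against 293, 291 and 286 CPM in WT (0.41, SE 0.06). FLVCR1 and GUK1 stood at 0.54 and 0.44 and ABCB10 at 0.38, all higher, and IARS2 at 0.20 was higher but did not pass without WT 2 (adjusted p = 0.0503). The 3 that did not pass, FH, TFB2M and COX20, all lie beyond ACTN2. Of 24 metabolic enzymes and transporters 17 were higher and 0 lower (median 0.37). GLUL, glutamine synthetase, had 508, 504 and 492 CPM in mut and 378, 398 and 387 CPM in WT (0.37, SE 0.05), and LPGAT1 and QSOX1 stood at 0.42 and 0.60.

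RNA processing and translation genes were higher in 17 of 25 cases and lower in 0, with a median of 0.25. DHX9, an RNA helicase, had 706, 766 and 780.5 CPM in mut against 639, 591 and 623 CPM in WT (0.28, SE 0.05), HEATR1, a ribosome biogenesis factor, had 488, 538 and 546 CPM in mut against 432, 419 and 435 CPM in WT (0.29, SE 0.06), and the tRNA synthetase gene EPRS1 stood at 0.27. All 3 were separated between the groups. Of 18 genes of DNA repair and chromatin 12 were higher and 1, SMYD3, was lower, the median being 0.30. PARP1, which builds poly(ADP-ribose) at DNA breaks, had 733, 735 and 767 CPM in mut and 563, 577 and 550.2 CPM in WT (0.40, SE 0.05). NUCKS1 and the lamin B receptor gene LBR stood at 0.32 and 0.28, and the histone gene H2AC25 had 381, 395 and 370.1 CPM in mut and 220.0, 231 and 229.9 CPM in WT (0.75, SE 0.06). MDM4, the p53 inhibitor, stood at -0.08 and did not pass.

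The list of mitosis, centrosome and nuclear pore genes was split. Of 18 tested, 8 were higher and 2 lower (ASPM and AHCTF1), with a median of 0.14. NUP133, a scaffold nucleoporin, had 385, 420.3 and 409 CPM in mut and 284, 269 and 283 CPM in WT (0.54, SE 0.06), NSL1 and NEK2 were higher at 0.42 and 0.35, and CENPF, KIF14 and TPR, all within the run, stood at -0.08, -0.11 and -0.04 and did not pass. CENPF, a kinetochore protein, had 349, 408 and 417 CPM in mut and 426, 359.97 and 455 CPM in WT, so its groups overlapped. Vesicle traffic genes were higher in 14 of 21 cases and lower in 0, with a median of 0.32. ARF1, a GTPase of the Golgi, had 359, 340.0 and 371 CPM in mut and 229, 283 and 246 CPM in WT (0.50, SE 0.07), CNIH4 and MIA3 stood at 0.46 and 0.39, and TOR1AIP2 at 0.10 did not pass, except without mut 1 (adjusted p = 0.027).

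Extracellular matrix, adhesion and cell surface genes were higher in 9 of 13 tested cases and lower in 0, with a median of 0.39. The laminin subunit genes LAMC1 and LAMB3 stood at 0.36 and 1.11. LAMC1 had 251, 266 and 264 CPM in mut and 199, 203 and 206 CPM in WT, and LAMB3 was below 5 CPM in every library. ENAH, CAPN2 and the basement membrane gene NID1 stood at 0.36, 0.41 and 0.47, and CD46, a complement regulator, at 0.08 did not pass. Of 25 kinase, phosphatase and signalling genes 11 were higher and 0 lower (median 0.30). They included PTPN14 (0.23, not past the test without mut 2, adjusted p = 0.075) and EGLN1, the oxygen-sensing prolyl hydroxylase (0.21, not past it without mut 2 or WT 2, adjusted p = 0.087 and 0.096). CDC42BPA and PPP1R15B stood at 0.11 and 0.16 and passed only without mut 1 (adjusted p = 0.023 and 0.0069).

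Transcription factor genes were higher in 11 and lower in 2 of 26 tested cases, with a median of 0.17. IRF2BP2, a corepressor, had 137, 144 and 138 CPM in mut and 105, 101 and 99.4 CPM in WT (0.46, SE 0.06), ATF3 and TAF5L stood at 0.67 and 0.32, and ZNF281 at 0.05 did not pass. ZNF678 was higher at 0.19 but did not pass without any 1 library except mut 1 (adjusted p = 0.052 to 0.22), nor in DESeq2 (0.086). Most zinc finger genes of the list lie beyond SMYD3, and ZNF695 there was lower. Among 6 tested noncoding RNAs 2 were higher, GAS5 and SNORA14B, and 0 lower, the median being 0.34. SNORA14B, a box H/ACA snoRNA within TOMM20, had 18.3, 24.3 and 15.9 CPM in mut against 10.65, 10.5 and 5.41 CPM in WT (1.09, SE 0.17). Whether reads of unspliced TOMM20 RNA were counted for it is not given in the sources used here.

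**Figure D4:**
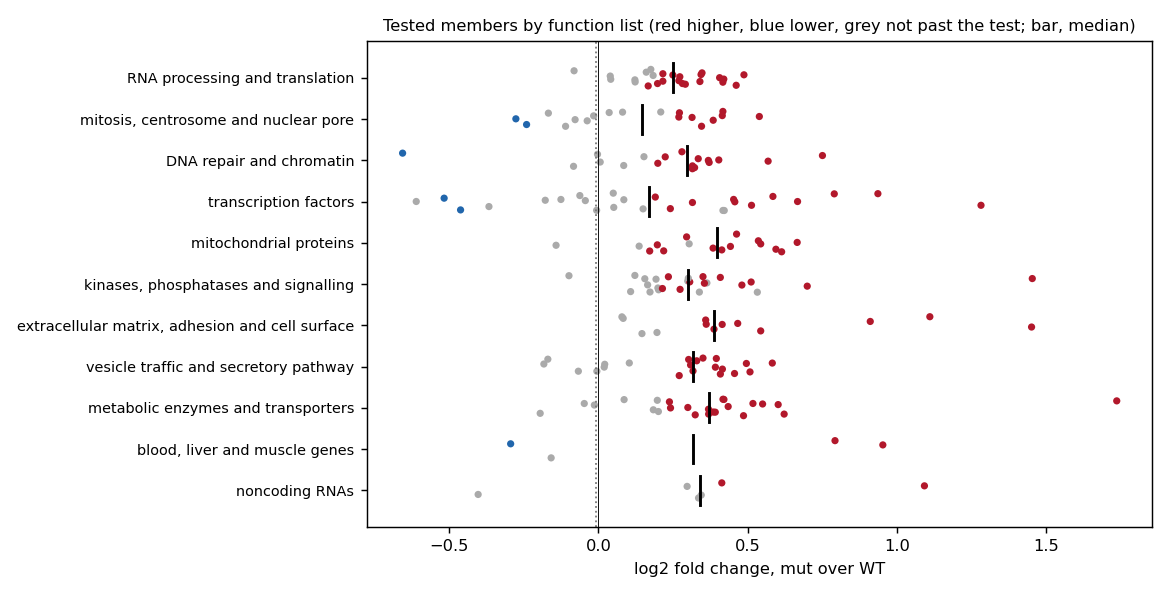
Log2 fold change (mut over WT, total RNA) of the tested members of each of the 11 function lists; red points were higher, blue lower and grey not past the test, short vertical bars are list medians, the solid line is 0 and the dotted line the median of all tested genes. List medians run between 0.14 (mitosis) and 0.40 (mitochondrial proteins), all to the right of the dotted line.

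Genes typical of blood, liver and muscle were mostly silent, and few could be tested. Of 42 such members 17 had 0 counts in all 6 libraries, among them FASLG, IL10, CR1 and TNNT2, and 4 were tested. CR2, a complement receptor known from B cells, had 13.4, 13.04 and 15.97 CPM in mut and 6.51, 9.16 and 8.6 CPM in WT (0.79, SE 0.14). LMOD1, a smooth muscle leiomodin, was higher at 0.95 with counts of 17, 21 and 22 in mut against 7, 16 and 13 in WT, and did not pass without mut 2 or 3 or WT 1 (adjusted p = 0.064 to 0.13) nor in DESeq2 (0.16). RYR2, the cardiac ryanodine receptor, was lower, and ACTN2 at -0.16 did not pass.

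Among members with a mean CPM of at least 1 the largest rises included, in order, NMNAT2, NIBAN1, KIF21B, PROX1-AS1, ASTN1 and LAMB3, all within the run. NMNAT2, an NAD synthesis enzyme of neurons, had 2.46, 3.05 and 2.76 CPM in mut and 0.93, 0.94 and 0.49 CPM in WT, a log2 fold change of 1.74 (SE 0.31). NIBAN1, a stress-responsive protein, had 47.3, 50.3 and 52.9 CPM in mut and 17.7, 17.1 and 20.5 CPM in WT (1.45, SE 0.09), and the neuronal gene ASTN1 had 16.4, 20.7 and 16.7 CPM in mut and 7.24, 7.28 and 8.85 CPM in WT (1.21, SE 0.13). In all 3 the lowest mut library was above the highest WT library. KIF21B, a kinesin gene, and PROX1-AS1 stood at 1.39 and 1.31 with means of 5.74 and 1.64 CPM in mut and 2.12 and 0.65 CPM in WT. NMNAT2 overlaps another gene on the chromosome, and PROX1-AS1 overlaps PROX1, so reads of these loci may not be fully separated. Both were below 1 CPM in every WT library and passed the filter on low counts through the mut libraries. Their ranks among the rises therefore only describe the genes that this filter kept.

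The falls were fewer, and 9 of the 10 were lost under at least 1 alternative. In order of size they included GPR52, SMYD3, ZNF695, PRRX1, RYR2, PRRC2C, AHCTF1, SCYL3 and ASPM, between -1.34 and -0.24, and ASPM alone lies within the run. RYR2 had 44.0, 52.1 and 45.3 CPM in mut and 57.0, 55.5 and 61.3 CPM in WT (-0.29, SE 0.08), and AHCTF1, a nucleoporin that seeds pore assembly on chromatin, had 54.2, 67.8 and 67.9 CPM in mut and 79.9, 70.3 and 80.4 CPM in WT (-0.28, SE 0.08). ASPM had 232, 282 and 269 CPM in mut and 309.8, 268 and 348 CPM in WT, so that its groups overlapped (-0.24, SE 0.08). GPR52, an orphan receptor, rested on few reads, with counts of 1, 4 and 9 in mut against 16, 16 and 10 in WT. Without mut 1 or WT 3 only 2 members of the region were lower, and without WT 1 only 3.

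Of the 10 falls PRRC2C passed under all 9 alternatives run on single genes. RYR2 did not pass without WT 3 (adjusted p = 0.058). AHCTF1 and ASPM were lost without mut 1, WT 1 or WT 3 (0.065 to 0.12 and 0.054 to 0.27), and PRRX1 without mut 1, WT 1 or WT 2 (0.0504 to 0.081). ASPM and PRRX1 also did not pass in DESeq2 (adjusted p = 0.24 and 0.11). SMYD3 and GPR52 were lost without mut 1 or 2 or WT 1 or 3 (0.053 to 0.14 and 0.054 to 0.19), and SMYD3 also in DESeq2 (0.17). SCYL3 and ZNF695 were lost without mut 1 or 3 or WT 1 or 3 (0.098 to 0.21 and 0.083 to 0.21), and both also in DESeq2 (0.212 and 0.214) and with RLE size factors (0.055 and 0.051). Of the 46 named members that were higher, 36 passed under every alternative run on single genes.

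Gene span and abundance went with the size of the difference in part. Among protein-coding genes of the run, the Spearman correlation of log2 fold change was -0.17 with gene span and -0.24 with mean CPM across 249 genes, and 0.18 with promoter GC content across 216 genes. Outside chromosome 1 the same correlations were -0.24 and -0.04 across 10951 genes and 0.11 across 9004. Genes share the libraries and are not independent replicates. Run genes with spans of up to 10 kb had 22 of 27 higher and a median of 0.42, those of 10 to 100 kb 113 of 164 and 0.34, and those over 100 kb 31 of 58 and 0.32, where genes outside chromosome 1 had medians of 0.07, -0.01 and -0.11. The run stood above the genes outside chromosome 1 in every span class. In run genes of 50 CPM or more, 92 of 122 were higher and the median was 0.32. In the 23 run genes under 5 CPM 10 were higher and the median was 0.68. Outside chromosome 1 the medians were -0.0053 at 50 CPM or more and 0.09 under 5 CPM. Weakly counted genes can pass the filter on low counts through the higher group alone, so the 0.68 may be too large.

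The small RNA libraries were not used to choose the region. They were prepared from the same lines and held 503699 to 1219718 fragments in mut and 493314 to 585737 in WT. Of 10796 annotated small RNA features 285 lie in the region, and 10 of these were among the 559 tested. By the edgeR test 0 of the 10 passed (background 0.179%), and 1 had an unadjusted p under 0.05 (background 6.8%); limma on log2(FPKM + 1) gave 0 and 1. Their median log2 fold change was 0.36, against 0.02 over all tested features, and 7 of 10 lay above 0 (background 52.6%), all of them among the 8 features within the run. In 1 of the 10, SNORA36B, the 3 mut libraries lay above the 3 WT libraries (background 7.33%). The 17 tested loci reconstructed from reads, which contain several of the annotated features, had a median of 0.40, with 14 above 0 (background 51.1%), 0 of them past the test (background 0.17%) and 5 at an unadjusted p under 0.05 (background 7.81%). Of these 5, 4 are pieces of the GAS5 locus, which lies before the run, and 1 covers SNORA36B, so they are not independent.

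SNORA36B, a box H/ACA snoRNA within RAB3GAP2, had 156, 151 and 71.5 FPM (fragments scaled to library depth) in mut and 67.8, 58.8 and 68.3 FPM in WT, a log2 fold change of 1.11 (SE 0.35, adjusted p = 0.36). Its mut libraries were all above the WT libraries, the third only just. RNU5A-8P, a U5 snRNA pseudogene within HHAT, had 2868, 2685 and 1193 FPM in mut and 1531, 1253 and 1719 FPM in WT (0.73, SE 0.35), so mut 3 lay below every WT library. SNORA14B had 333, 449 and 252 FPM in mut and 264, 211 and 277 FPM in WT (0.59, SE 0.27), with overlap. Without mut 3, which stood apart from the other small RNA libraries (chi-square per degree of freedom of 129.7 and 125.6 against the other 2 mut libraries and 31.2 between those), these 3 features passed, with log2 fold changes of 1.42, 1.08 and 0.83 (adjusted p = 0.0031, 0.0059 and 0.032). SNORA77, within ATP2B4, had 170, 184 and 169 FPM in mut and 163, 134 and 171 FPM in WT (0.27, SE 0.19), and SCARNA3, within COP1, had 70.5, 116 and 41.7 FPM in mut and 62.0, 83.1 and 109 FPM in WT (0.02, SE 0.38).

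Transfer RNA genes in the run stood at 0.49 (TRK-TTT3-1), 0.45 (TRT-TGT2-1) and -0.10 (TRK-TTT3-2), and the 2 tested tRNA genes at the chromosome end, TRE-CTC2-1 and TRL-CAA4-1 within the span of PGBD2, at -0.10 and -0.13. None passed. Reconstructed loci over the GAS5 snoRNAs, between 173864128 and 173868037 on the minus strand, stood at 0.18 to 0.60 in 5 cases. The longest of them had 6085, 6793 and 8221 FPM in mut and 5076, 5193 and 5262 FPM in WT (0.52, SE 0.15, adjusted p = 0.25), without overlap between the groups.

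**Figure D5:**
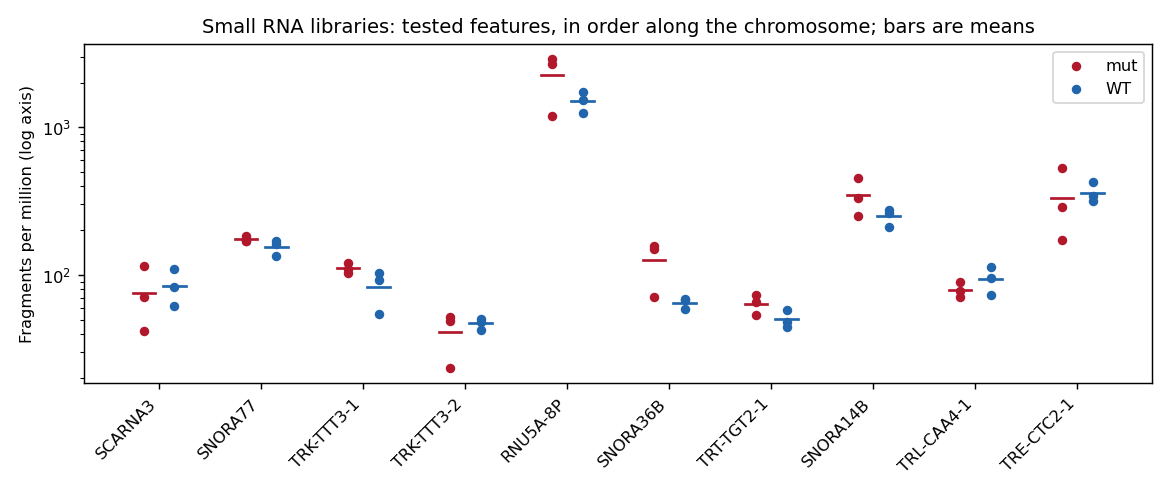
FPM in each small RNA library (log axis) of the 10 tested annotated features of the region in order along the chromosome; red points are mut and blue points WT libraries, and bars are means of 3. SNORA36B has all 3 mut points above the WT points, and in RNU5A-8P the lowest of the 6 points is a mut library.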

How the data were processed

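Total RNA and small RNA libraries of mut and WT cells were compared, with 3 libraries per group and assay. The authors deposited raw read counts per Ensembl gene for total RNA, and, per small RNA feature, the fragment count, FPM (a signal scaled to library depth) and FPKM. The hg38 build, HTSeq 0.6.1, STAR 2.4.0, DESeq2 1.8.2 and CASAVA 1.8.2 are named, per the submitters' processing notes. Which annotation was used, and whether counting used strand, is not given in the sources used here, so overlapping and antisense genes are uncertain. Reads that overlap no annotated gene, overlap several genes or align at several places were deposited in separate rows that name no gene. Such rows held 57.8% to 63.2% of reads and were left out.

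Positions came from RefSeq GRCh38.p14, the same build, by symbol (56321 of 60483 rows have one) and then by unique synonym (239 rows). This placed 39617 rows. A further 906 tested genes could not be placed. A symbol shared by 3 member rows, SNORD81, leaves their position uncertain.

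Counts were fitted over all 14409 genes that passed filterByExpr in R 4.3.3 with edgeR 4.0.16, using TMM scaling and its quasi-likelihood test, and adjusted by the Benjamini-Hochberg method at 0.05. A standard error is the size of the log2 fold change over the square root of F. CPM use the TMM-scaled library size of the tested genes, and those of marker genes the total count. Small RNA fragment counts were fitted the same way, with the denominators of FPM as library sizes. All tests are two-sided, and p-values weigh the difference between groups against the spread between libraries, which may be technical. The procedure was tested on simulated data: 91% of 200 genes changed 2-fold were recovered among 14409 in total RNA, and all of 111 features changed 4-fold in small RNA. Of the calls made there, 5.21% in total RNA and 2.63% in small RNA were false. Smaller changes, such as most members showed, were not simulated, so their recovery is not known. Same-numbered libraries correlated at -0.09, -0.07 and 0.03 in total RNA, so no pairing was used. No replicate pair agreed within sampling noise.

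Alternatives were DESeq2 1.42.0, limma 3.58.1 for small RNA, RLE size factors, no filter, a mean CPM of at least 5, protein-coding genes alone, a replicate block, removal of the lowess trend on gene span, absolute deviations for the run, and leaving out each library. Runs weighted by inverse variance, and with a mean CPM of at least 20, were added after seeing the data.

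Members, function lists and tests were chosen with earlier results of these data known. Named genes are the 8 largest rises with a mean CPM of at least 1, the falls, the 5 most abundant members, 5 tested genes on each side of the rule start and of the run start, the last 5 tested genes and the 4 most abundant members of each list, with small RNA features past the test or most abundant. Further members named as examples were chosen after their values were seen. Some genes that the rule selects are not reported here.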

Additional observations from a re-analysis of the deposited data

How the results depend on the processing

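The count of higher members (190) stayed within 1.5 times of itself in every alternative, between 156 (DESeq2) and 205 (without mut 1), and the regional median stood between 0.28 and 0.34. The median from FAM72D to the region moved by less than the spread between replicates. The count of lower members (10) was 3 in DESeq2, 5 with a mean CPM of at least 5, and 2 to 10 when single libraries were left out (2 without mut 1 or WT 3, 3 without WT 1). The median of the last 25 genes (-0.04) was -0.0097 in DESeq2, -0.29 with no filter, 0.15 with a mean CPM of at least 5, 0.065 in protein-coding genes, and -0.053 to 0.017 with single libraries left out. The start of the raised run (174999435) moved to 173477335 (PRDX6) in DESeq2, with a mean CPM of at least 5 or 20, with absolute deviations and with inverse-variance weights, to 175156986 (KIAA0040) with the span trend removed, and to 245206444 (KIF26B-AS1) with no filter, where 2 runs found the drop at the chromosome end instead. The first gene after the run (236686499) moved to 245749347 (SMYD3) in DESeq2, protein-coding genes, with the span trend removed, absolute deviations or weights, to 246540561 (TFB2M) with a mean CPM of at least 5 and to 245206444 with no filter; with a mean CPM of at least 20 the 3 runs gave no drop after the raised run. These starts come from the division into 2 runs and the ends from that into 3. At a mean CPM of at least 20, dividing the genes from PRDX6 on into 2 runs put the start of the second at 237042184 (RYR2). With single libraries left out the start in 2 runs stayed at 174999435 and the first gene after the run, in 3 runs, was at 236686499 to 236819561. Without mut 1 the start in 3 runs was 175156986 (KIAA0040), and in DESeq2 it was 174999435. The cause of these moves was not tested. Small RNA features past the test (0) were 1 with no filter (SNORA36B) and 0 to 3 with single libraries left out. The replicate block gave 179 higher and 9 lower members, a median of 0.31 and 7 of 81 named genes no longer past the test, among them SCYL3, HNRNPU, RC3H1, MRPS14, ZNF678 and IARS2 (adjusted p = 0.075, 0.075, 0.073, 0.089, 0.082 and 0.051). Counts in the last window of genes were low, with a median of 5.9 CPM.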
